A study of Mus musculus with 6 samples.

Results

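The genes described here are 31 core components of apoptosis and necroptosis, chosen as a named list of BCL2 family proteins, caspases, caspase inhibitors and death receptor components, out of 34989 genes to which the transcripts of the deposited tables were summed. They were measured by stranded poly(A) RNA sequencing of mouse handpads at E14.5, in 3 wild-type libraries and 3 libraries from knockouts of Grhl3, all on a C57BL/6 background. Grhl3 encodes a transcription factor of surface epithelium, and the study addressed how digits separate. The handpad is the paddle from which the digits form, with mesenchyme, cartilage, vessels, blood and a covering of epidermis and periderm sequenced together, so fewer cells of a type and less RNA per cell cannot be told apart. The labels do not say whether a library is 1 embryo or a pool, and the p-values below measure the spread between these libraries, which may be partly technical.

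In the mitochondrial pathway of apoptosis, BH3-only proteins sense stress and bind the survival proteins of the BCL2 family. The effectors BAX and BAK then open the outer mitochondrial membrane, and released cytochrome c assembles with APAF1 into the apoptosome that activates caspase-9. Death receptors such as FAS reach the same executioner caspases through FADD and caspase-8. When caspase-8 is inactive, RIPK1 and RIPK3 can instead activate MLKL, which ruptures the plasma membrane. Cell death in the interdigital web is a well known step in freeing the digits of the mouse limb.

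The libraries held 38052692 to 56037639 estimated counts, and 16938 genes had enough counts to be tested. Grhl3 measured 14.3, 45.7 and 18.5 CPM (counts scaled to a common library total) in wild-type handpads and 3.11, 2.86 and 2.95 CPM in knockout handpads. The gene of the knockout thus fell, with a log2 fold change of -3.14 (standard error, SE, 0.41; adjusted p = 0.0221, edgeR quasi-likelihood test with Benjamini-Hochberg adjustment), in the direction of the labels. Wild-type replicate 1 stood apart: its counts came from shorter transcripts on average (3148 bases against 3347 to 3625), and its Y-linked genes summed to 5.36 CPM, against 290 and 341 CPM in the other wild-type libraries and 3.39 to 4.42 CPM in the knockouts. Genotype and embryo sex therefore cannot be told apart once that library is left out. Summed epithelial markers were 1330 to 2210 CPM in the wild-type and 2500 to 3400 CPM in knockout handpads (8 genes, 0 called, none at 0). Among these, Trp63 (log2 fold change 0.18) and Esrp1 (-0.00) differed little. Periderm markers summed to 263 to 404 against 720 to 1350 CPM (8 genes, 5 called higher, none at 0), mostly through Krt6a and Krt17, while Krt4 was lower in every knockout library (-1.75, adjusted p = 0.0785, edgeR). The sums of interdigital web markers (11 genes, 560 to 635 against 521 to 650 CPM) and macrophage markers (10 genes, 153 to 190 against 163 to 234 CPM) overlapped between the groups, with 0 genes called in each. The cartilage sum was lower in every knockout library (6 genes, 2950 to 4270 against 1800 to 2810 CPM, 0 called) and the endothelial sum higher (5 genes, 273 to 299 against 326 to 346 CPM, 0 called). Of the single genes, the groups did not overlap for 1 of the 6 and 3 of the 5, beside 12.9% of all genes tested.

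None of the 31 cell death genes passed the edgeR test for a change with the loss of Grhl3. All 31 had enough counts to be tested, and 0 were higher and 0 lower at an adjusted p under 0.05. Over all genes tested, 0.348% were called higher and 0.0827% lower, or 0.431% in either direction. DESeq2, limma-voom and edgeR's likelihood ratio test also called 0 of the 31. At an unadjusted p under 0.05 there was 1 member, Pmaip1, or 3.23% of the list beside 7.22% of all genes. With a term for Y-linked expression Pmaip1 no longer had one, and the single such member was Cycs, with a lower value (-0.32). Here and below, that term compares the knockouts mainly with wild-type replicate 1, the only wild-type library low in Y-linked expression. Short members such as Cycs sat high in that library, so fits with this term are no clean check on embryo sex. The adjusted p-values ran from 0.38 to 1. The median log2 fold change (knockout over wild-type) was 0.05, beside -0.004 over all genes tested, with 20 members above 0 and 11 below.

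The precision differed between members. For 23 of the 31 the 95% interval of the difference lay within 1.5-fold in either direction, and for 28 it lay within 2-fold. Pmaip1, Bik and Mlkl had intervals that reached past 2-fold. The knockout mean lay inside the range of the wild-type libraries for 23 members. In CPM the groups did not overlap for 3 members, Bid, Bmf and Pmaip1, each higher in the knockouts, where 12.9% of all genes tested showed no overlap.

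**Figure D1:**
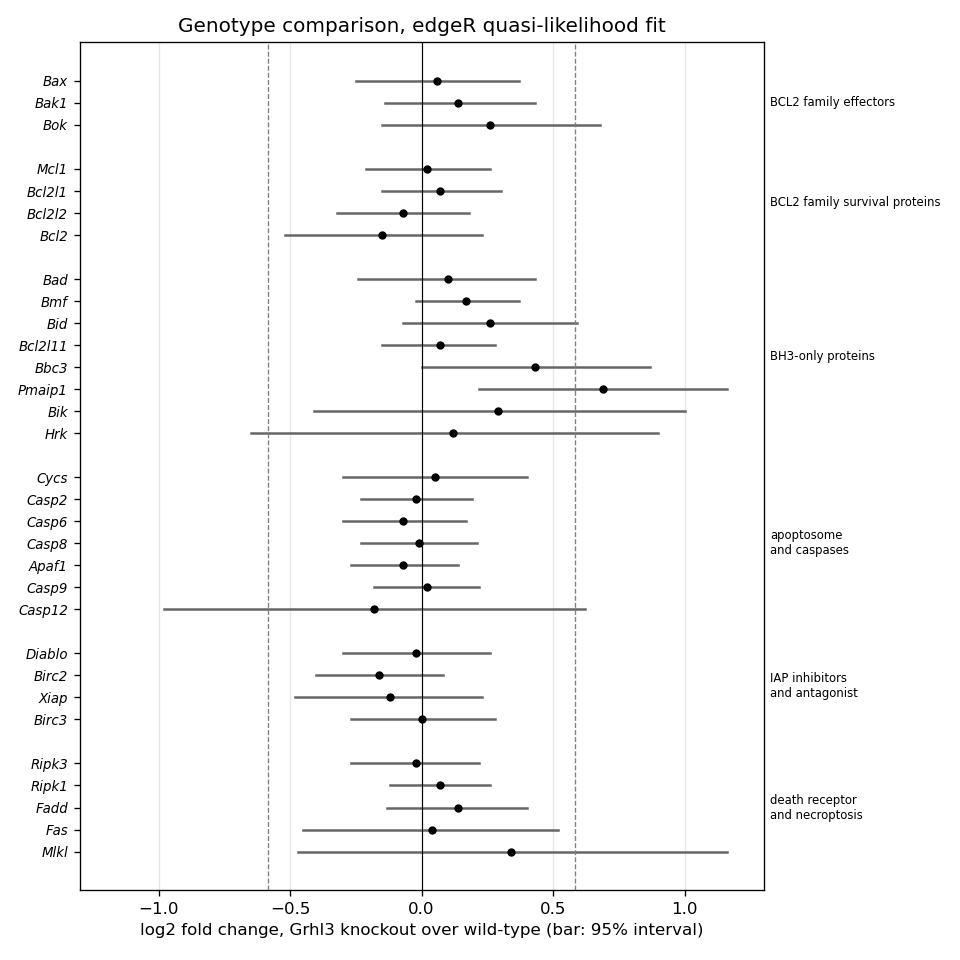
Log2 fold change of each of the 31 genes, Grhl3 knockout over wild-type, with its 95% interval (3 libraries a group, edgeR quasi-likelihood fit), ordered by role. Dashed lines mark 1.5-fold, and 23 of the 31 intervals lie between them.

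Transcript levels per length spanned a wide range. In TPM, which divides by transcript length and by the library total, averaged over the 6 libraries, 22 members were above 10 (Casp9, at the limit, had 8.61 to 11.4 in single libraries), 7 lay between 1 and 10, and 2, Mlkl and Hrk, were below 1. Cycs (242 TPM) and Bax (132 TPM) were the only members above 100. Summed over the 31 genes, the wild-type libraries held 934, 983 and 1040 TPM and the knockout libraries 989, 987 and 895 TPM, which overlap.

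**Figure D2:**
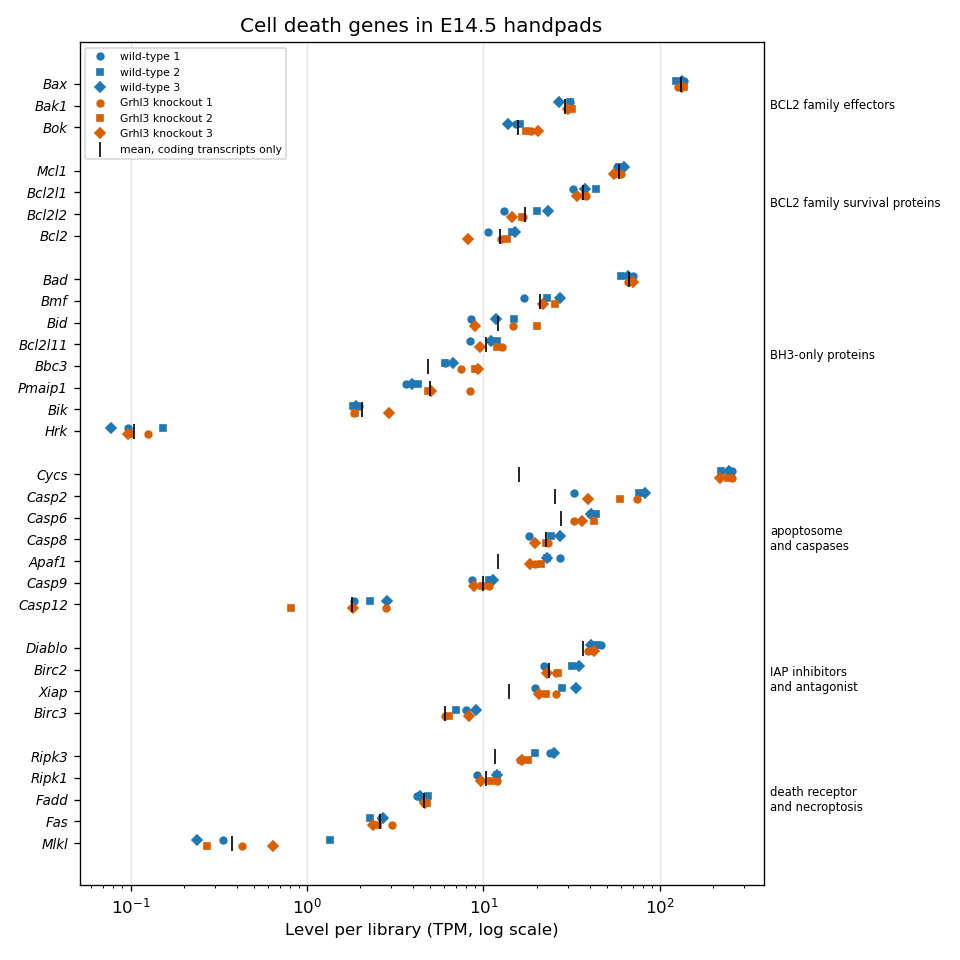
Level of each of the 31 genes in each library (TPM, log scale), wild-type in blue and Grhl3 knockout in orange, with 1 symbol per replicate number, and the mean over annotated coding transcripts as a bar. The level of Cycs is 242 TPM over all transcripts and 15.9 TPM over coding ones.

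The effectors were dominated by Bax. Bax (ENSMUSG00000003873.11, chromosome 7), which forms pores in the outer mitochondrial membrane, measured 80.2, 56.7 and 61.1 CPM in wild-type handpads and 63.3, 70.8 and 71.9 CPM in the knockouts. Wild-type replicate 1 was the highest of the 6 and the groups overlapped, with a log2 fold change of 0.06 (95% interval -0.25 to 0.37, adjusted p = 0.992, edgeR). In TPM the level of Bax was 4.04 to 4.97 times that of Bak1, its partner in pore formation, in every library. Bak1 averaged 30.1 TPM and had a log2 fold change of 0.14 (SE 0.12). Bok, a related protein thought to act without the other effectors, measured 15.4, 16.1 and 13.8 TPM in wild-type handpads and 18.7, 17.5 and 20.4 TPM in the knockouts. These values did not overlap, but the CPM values did, because wild-type replicate 1 was the highest of all at 18.3 CPM beside 16 to 17.9 CPM in the knockouts (log2 fold change 0.26, adjusted p = 0.888, edgeR). The TPM groups failed to overlap for 5 members (Bok, Bbc3 and Pmaip1 higher and Apaf1 and Ripk3 lower in the knockouts), beside 10% of all genes tested.

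Among the survival proteins, which hold BAX and BAK in check, Mcl1 was the most abundant. Mcl1 (ENSMUSG00000038612.16, chromosome 3), a short-lived protein, measured 190, 155 and 167 CPM in wild-type handpads and 176, 172 and 172 CPM in the knockouts. The knockout values lay close together and inside the wild-type range. Its log2 fold change was 0.02 (95% interval -0.21 to 0.26, adjusted p = 0.994, edgeR). Bcl2l1, which encodes BCL-XL, averaged 37.1 TPM, Bcl2l2 17.4 TPM and Bcl2, the founding member of the family, 12.4 TPM. Bcl2 had the lowest fold change of the group, at -0.15 (SE 0.16). Knockout replicate 3 alone was low, at 56.3 CPM beside 78.8 to 90.8 CPM in the other 5 libraries, and without it the log2 fold change was 0.03. The summed TPM of the 3 effectors was 1.62, 1.25 and 1.26 times that of the 4 survival genes in wild-type handpads and 1.37, 1.49 and 1.64 times in the knockouts, which overlap.

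All 8 BH3-only genes, the stress sensors of the family, had fold changes above 0, none of them called. With a term for Y-linked expression Bad (-0.24) and Bik (-0.03) were below 0. Their median was 0.21 and their range 0.07 to 0.69, where 48.8% of all genes tested had a fold change above 0. Bad, whose product is held inactive by growth factor signalling, was the most abundant per length at 66.9 TPM. It measured 57.3, 38.3 and 43 CPM in wild-type handpads and 47.4, 49.2 and 51.7 CPM in the knockouts, which overlap. Relative to the survival genes, the summed TPM of the 8 was 1.03, 0.894 and 0.931 in wild-type handpads and 1.04, 1.13 and 1.14 in the knockouts. The lowest knockout value lay just above the highest wild-type value, that of wild-type replicate 1.

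Pmaip1 had the largest fold change of the 31. It encodes NOXA, a BH3-only protein that binds MCL1 and is a known target of p53, the stress-activated transcription factor. The wild-type libraries measured 9.01, 8.31 and 7.79 CPM and the knockout libraries 18.1, 10.7 and 11.6 CPM, or 8.37 ± 0.609 against 13.5 ± 4.01 CPM (SD, n = 3). Every knockout library was above every wild-type library, and knockout replicate 1 was well above the other knockouts. The log2 fold change was 0.69 (SE 0.21, 95% interval 0.22 to 1.16), which did not pass over all genes (adjusted p = 0.38, edgeR). Between 308 and 891 estimated counts lay behind each value. In the authors' deposited table, which lists 941 genes, Pmaip1 was the only member of the 31. Its log2 fold change there was 0.69, with an FDR of 0.184 (likelihood ratio test). The level of Mcl1 was 15.7, 13.8 and 15.8 times that of Pmaip1 in wild-type handpads and 7.21, 11.9 and 11 times in the knockouts (TPM). These ratios did not overlap, although the levels of Mcl1 did, so they mainly restate the values of Pmaip1.

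Bbc3 came next. It encodes PUMA, a BH3-only protein and another known p53 target. In TPM it measured 6.05, 6.04 and 6.74 in wild-type handpads and 7.5, 8.94 and 9.32 in the knockouts. Its CPM values were 6.87, 4.43 and 5.39 against 6.68, 7.75 and 8.08. Only wild-type replicate 1 reached into the knockout range, on the CPM scale, and the log2 fold change was 0.43 (95% interval -0.00 to 0.87, adjusted p = 0.693, edgeR). Over coding transcripts alone the Bbc3 values overlapped, and Pmaip1 was then the single member whose TPM groups did not.

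Bid and Bmf had smaller differences. Bid, which caspase-8 cleaves to link death receptors to mitochondria, measured 12.4, 12 and 11.5 CPM in wild-type handpads and 13.1, 17.1 and 12.6 CPM in the knockouts. Knockout replicate 2 was high, and the other knockouts lay just above the wild-type libraries (log2 fold change 0.26, adjusted p = 0.818, edgeR). The annotated span of Bid overlaps that of Bcl2l13 on the opposite strand by 913 bases, and whether strand was used in quantification is not given in the sources used here. Bmf, which responds to loss of cell attachment, measured 77.2, 82.1 and 82.7 CPM in wild-type handpads and 86.7, 98.4 and 88 CPM in the knockouts. These groups did not overlap either, at a log2 fold change of 0.17 (95% interval -0.02 to 0.37, adjusted p = 0.771, edgeR). For both genes the TPM values overlapped. Bcl2l11, which encodes BIM, had a log2 fold change of 0.07 (SE 0.09). Hrk (0.354 to 0.662 CPM) and Bik (0.822 to 1.6 CPM) were the lowest of the 8 in CPM.

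Most apoptosome and caspase genes were even across libraries. Between the highest and the lowest of the 6 libraries in CPM, Casp9 varied 1.1-fold, Casp8 1.15-fold, Apaf1 and Casp2 1.17-fold and Casp6 1.19-fold, whereas Cycs varied 1.58-fold and Casp12 2.73-fold. Apaf1, the scaffold of the apoptosome, had a log2 fold change of -0.07 (SE 0.09). Its TPM values were 27.2, 22.9 and 22.8 in wild-type handpads and 19.5, 21.2 and 18.4 in the knockouts, which do not overlap. The CPM values of 68.9, 74.9 and 79.9 against 74.7, 70.1 and 68.4 did overlap. The initiators Casp8 and Casp9, of the death receptor and mitochondrial routes, had log2 fold changes of -0.01 and 0.02, with intervals of -0.23 to 0.21 and -0.18 to 0.22. For Casp6, an executioner, the value was -0.07, and Casp12, linked to stress of the endoplasmic reticulum, was low (1.16 to 3.17 CPM) and imprecise at -0.18 (SE 0.35). Cycs, the gene of cytochrome c, measured 104, 65.8 and 77 CPM in wild-type handpads and 87.5, 84.6 and 83.6 CPM in the knockouts. The 3 knockouts lay within the spread of the wild-type libraries (log2 fold change 0.05, adjusted p = 0.994, edgeR).

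Of the 3 caspase inhibitors of the IAP family and their antagonist, 0 passed the test, and their median log2 fold change was -0.07. Xiap, an X-linked gene whose product blocks caspases directly, measured 111, 135 and 168 CPM in wild-type handpads and 143, 122 and 115 CPM in the knockouts. The wild-type libraries spanned the knockouts (log2 fold change -0.12, adjusted p = 0.971, edgeR). Birc2, an IAP that acts on receptor signalling, had the lowest fold change of the group at -0.16 (SE 0.10), and its neighbour and relative Birc3 had 0.00 (SE 0.12). Diablo, which displaces IAPs from caspases, was the most abundant of the 4 at 42.4 TPM. It measured 55, 43.4 and 44.1 CPM in wild-type handpads and 41.5, 49.5 and 49.3 CPM in the knockouts, which overlap (log2 fold change -0.02). A read-through gene on the same strand, Gm49027, covers 12095 bases of Diablo and held 21.9 CPM on average, so the split of counts between them is uncertain.

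Of the receptor and necroptosis genes, Ripk3 was the highest per length and Mlkl the lowest. Ripk3, the kinase that commits a cell to necroptosis, measured 18.7, 18.2 and 16.6 CPM in wild-type handpads and 17.3, 16.8 and 18.5 CPM in the knockouts, which overlap. In TPM it was 23.8, 19.6 and 25.1 against 16.1, 17.9 and 16.5, with every knockout library below every wild-type one. The summed TPM of the group, 40.2, 39.9 and 44.3 against 36, 36.4 and 33.9, did not overlap either. The coding transcripts of Ripk3 alone gave 10.4, 13.3 and 11.7 TPM against 11.3, 11.5 and 11.6 TPM, which overlap. Mlkl, the pore-forming target of RIPK3, held only 12 to 32 estimated counts a library, or 0.317 to 0.65 CPM, and its log2 fold change of 0.34 had an interval of -0.47 to 1.16. The TPM of Ripk3 was 63.6 ± 45.8 times that of Mlkl in wild-type and 42.9 ± 20.6 times in knockout handpads (SD, n = 3). Fas averaged 2.59 TPM, its adaptor Fadd 4.58 TPM and Ripk1, the kinase shared by survival and death signalling, 10.9 TPM, with log2 fold changes of 0.04, 0.14 and 0.07.

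Several of these levels depended on which transcripts were counted. The tables listed 158 transcripts of the 31 genes, 96 of them of coding type, and 28 members had more than 1. Of the 81 with enough counts to be tested, 0 were called and 1, the single transcript of Pmaip1, had an unadjusted p under 0.05. Over all 47052 transcripts tested, 1 was called, or 0.00213%. For Cycs, a retained-intron transcript of 607 bases, Cycs-201, held 92.9% to 93.7% of the TPM in every library, and the coding transcript Cycs-202 averaged 15.9 TPM. Cycs is thus the highest member only when its non-coding form is included. The annotated Cycs pseudogenes in the tables, Cycs-ps2 and Cycs-ps3, were listed at 0 TPM in the mean, and whether Cycs shares reads with other copies was not tested.

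Casp2, an ancient caspase with roles in the response to abnormal chromosome number, had a similar split that varied between libraries. Its TPM ran from 32.5 to 82.1 over the 6 libraries, while its coding transcript Casp2-201 stayed between 21.7 and 29.6 TPM. The rest was mainly Casp2-210, a non-coding transcript of 494 bases, at 27.5%, 39.4% and 45.8% of the gene's TPM in wild-type handpads and 50.9%, 46.5% and 29.5% in the knockouts. Those shares overlapped between the groups. For Ripk3, the retained-intron transcript Ripk3-206 of 478 bases held 56.5%, 32.5% and 53.4% in wild-type handpads and 29.5%, 35.9% and 29.4% in the knockouts, and Ripk3-202, which encodes 422 residues, held 21%, 63.3% and 46.6% against 70.5%, 48.5% and 54.9%. Both shares overlapped, and neither transcript passed the test (adjusted p = 1 for each, edgeR).

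The 2 main Bcl2l1 transcripts both encode 233 residues, the BCL-XL form. They held 67.2%, 55.3% and 59.5% (Bcl2l1-201) and 27.3%, 28.7% and 18.7% (Bcl2l1-202) in wild-type handpads, against 56.5%, 56.8% and 57.9% and 29.2%, 31.5% and 32.6% in the knockouts. The highest share of Bcl2l1-202 in a wild-type library was 28.7%, just below the lowest knockout share, and its own log2 value was 0.37 (SE 0.25, adjusted p = 1, edgeR). Bcl2l11-205, the 196-residue form of BIM, held 64.2% to 83.9% of that gene's TPM in the 6 libraries, and the 91-residue Bcl2l11-202 held 6.98% to 10.5%. Mcl1-201, with 331 residues, held all of the TPM of Mcl1 to the digits given (100%), and Casp9-201 held 93.2% to 99.8% of Casp9.

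**Figure D3:**
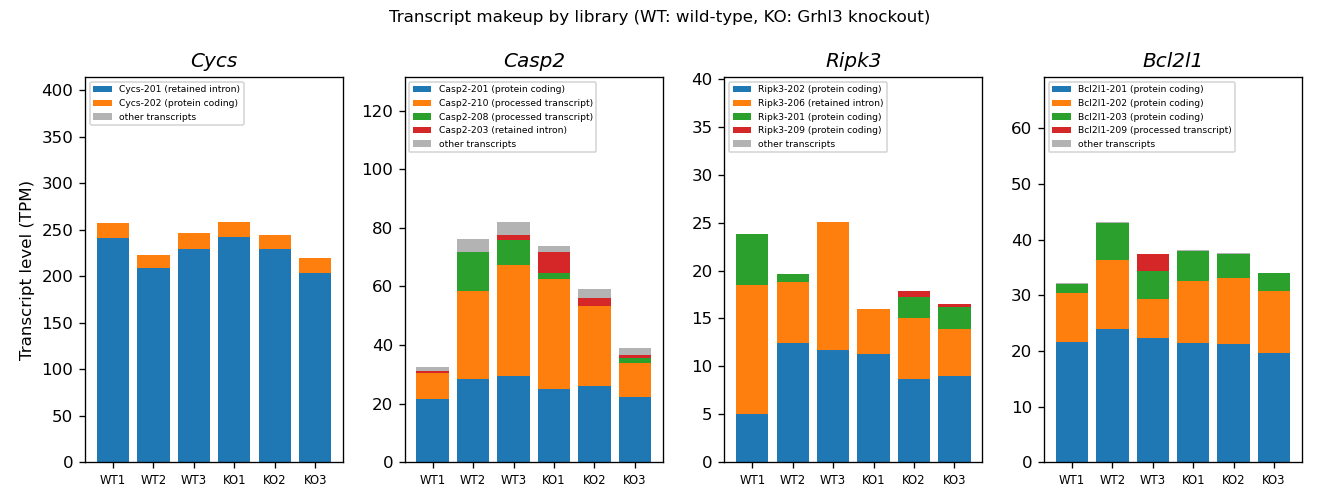
Stacked bars of transcript level (TPM) in each library for Cycs, Casp2, Ripk3 and Bcl2l1, with the 4 most abundant transcripts by name and annotated type. The coding transcript Casp2-201 stays between 21.7 and 29.6 TPM while the gene's total runs from 32.5 to 82.1 TPM.

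The other genes of cell death were read from 8 lists with 102 genes, of which 95 were tested. In these lists 0 genes were called with edgeR or limma-voom. DESeq2 and the likelihood ratio test each called 2, Cdkn1a and Sesn2, beside 299 and 260 of all 16938 genes tested. Of the 95, 13 had an unadjusted p under 0.05 (edgeR), 11 with higher and 2 with lower knockout values, or 13.7% beside 7.22% of all genes. The median log2 fold change was 0.04. Of the 12 tested IAP and mitochondrial factors, 0 had an unadjusted p under 0.05, with a median of 0.00. Of 18 necroptosis and pyroptosis genes, 1 had an unadjusted p under 0.05, Pycard, the adaptor of inflammasomes. It measured 18, 20.4 and 20.5 CPM in wild-type handpads and 16.3, 13.5 and 16.3 CPM in the knockouts (log2 fold change -0.35, adjusted p = 0.482, edgeR).

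The list of p53 and its targets held the most such genes. Of its 17 genes, 0 were called, and 6 had an unadjusted p under 0.05, 5 of them higher and 1 lower in the knockouts, or 35.3% beside 7.22% of all genes. With a term for Y-linked expression it was 4 genes of the 17 (23.5%), beside 2460 of the 16938 genes tested. Its median log2 fold change was 0.14, with 13 of 17 above 0, beside 48.8% of all genes. The groups did not overlap for 8, of which 7 were higher in the knockouts, beside 12.9% of all genes. The list was chosen with earlier results of these data known, so these shares only describe it. Sesn2, a stress-induced regulator of growth signalling, measured 15.7, 15.2 and 16.5 CPM in wild-type handpads and 23.8, 23.1 and 22.6 CPM in the knockouts. Both groups were tight and apart, and the log2 fold change reached 0.55 (SE 0.10, adjusted p = 0.0789, edgeR). Cdkn1a, which encodes the cell cycle inhibitor p21, measured 42.6, 28.7 and 35.2 CPM against 82.3, 49.7 and 72.6 CPM. The lowest knockout library lay above the highest wild-type library (log2 fold change 0.94, SE 0.20, adjusted p = 0.154, edgeR). In the authors' deposited table these were the 2 genes of the cell death lists with an FDR under 0.05. The values, 0.0123 for Sesn2 and 0.00274 for Cdkn1a, come from a likelihood ratio test, unlike the quasi-likelihood values above. Of the 941 genes listed there, 228 had an FDR under 0.05.

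Aen, a nuclease, measured 36.6, 36.3 and 37 CPM in wild-type handpads and 44.7, 45.1 and 48.3 CPM in the knockouts, again with no overlap (log2 fold change 0.33, adjusted p = 0.256, edgeR). Ccng1 and Eda2r, a cyclin and a death domain receptor of the TNF family known as p53 targets, were chosen for mention after their values were seen. Ccng1 went from 67.5, 59.3 and 75.9 CPM to 108, 84.2 and 88.1 CPM, and Eda2r from 2.64, 1.52 and 3.16 CPM to 5.44, 3.92 and 4.71 CPM, with adjusted p-values of 0.309 and 0.375 (edgeR). Trp53 itself had a log2 fold change of 0.07 (SE 0.12), and Mdm2, a target that limits p53, -0.06 (SE 0.12). Mdm4, another inhibitor of p53, measured 192, 205 and 256 CPM in wild-type handpads and 157, 184 and 170 CPM in the knockouts (log2 fold change -0.35, adjusted p = 0.544, edgeR). Among members with a textbook link to p53, not a complete set, Pmaip1 and Bbc3 had the fold changes of 0.69 and 0.43 given above. Bax and Fas had 0.06 and 0.04. Of the 31 members, 11 lay below 0, Apaf1 (-0.07) among them. The lowest fold change of the pathway lists was that of Tnfrsf25, a death domain receptor, which measured 1.93, 1.99 and 1.92 CPM against 0.873, 1.45 and 1.64 CPM (-0.56, adjusted p = 0.765, edgeR). The highest was 1.38, in the necroptosis and pyroptosis list, where 0 genes with higher knockout values had an unadjusted p under 0.05 (edgeR).

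Among the knockouts, the epithelial and periderm sums ran with some of the genes described above and not with others. Knockout replicate 1 was the highest library for Pmaip1, Cdkn1a, Sesn2, Ccng1 and Eda2r and for the epithelial and periderm sums (3400 and 1350 CPM), and knockout replicate 2 was the lowest knockout library for Pmaip1, Cdkn1a, Ccng1, Eda2r and both sums (2500 and 720 CPM). Aen, Bbc3, Bax and Bmf went the other way among the knockouts, with replicate 1 the lowest, and Bid was highest in replicate 2. In the wild-type group the sums did not run with the genes of the p53 list named here. There replicate 2 had the highest epithelial and periderm sums (2210 and 404 CPM) and the lowest Cdkn1a, Sesn2, Aen, Ccng1 and Eda2r. The part of epithelial content in these values was not tested.

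**Figure D4:**
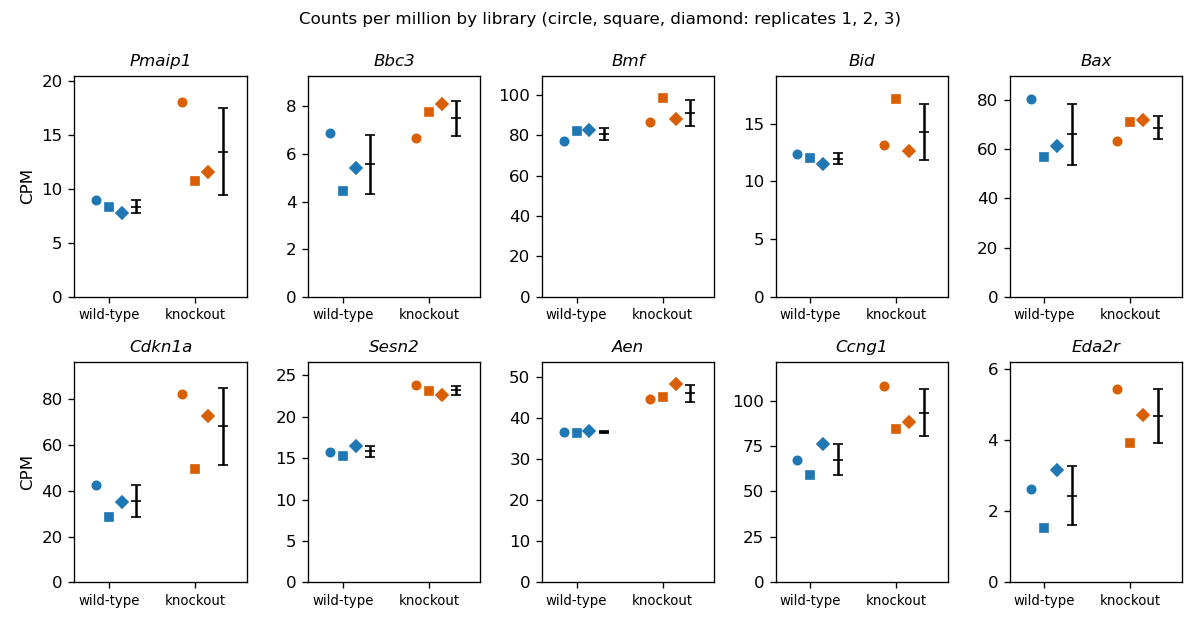
CPM in each library for 4 BH3-only genes, Bax and 5 genes of the p53 list, wild-type in blue and Grhl3 knockout in orange, with the mean and SD (n = 3) beside each group. The groups do not overlap for Pmaip1, Bmf, Bid, Cdkn1a, Sesn2, Aen, Ccng1 and Eda2r, and overlap for Bbc3 and Bax. The panels favour genes without overlap. Over the whole lists there was none for 3 of 31 members and 8 of 17 p53 genes, beside 12.9% of all genes tested.

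Because genes with a known link to p53 were among those with the largest differences, the promoters of both lists were searched for the p53 half-site consensus, which is 10 bases long and reads the same on both strands. The windows were the 300 bases around annotated starts (250 before and 50 after, RefSeq, build GRCm38.p6). Of 29 members with a window, 3 held a match (Bax, Birc2 and Bmf), and of 13 genes of the p53 list with a window, 7 did, beside 9.55% of all 27025 genes. The p53 list was made of p53 and its known targets, so its share of matches does not bear on the comparison of genotypes. A match is a description of the letters and not a bound site. Of the genes without a match here, nothing follows about p53. The stretches below, 50 bases each and 5′ to 3′ on the strand of the gene, show matches of 2 members and 2 p53 targets, with the half-site in capitals. The 2 targets and Bmf had a higher CPM in every knockout library, whereas the groups overlapped for Bax. Birc2, the other member with a match, is not shown and had a log2 fold change of -0.16.
Bax, chr7:45467070-45467119, minus strand: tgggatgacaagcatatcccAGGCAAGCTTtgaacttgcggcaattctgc
Bmf, chr2:118544771-118544820, minus strand: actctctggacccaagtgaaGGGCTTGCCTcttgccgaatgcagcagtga
Cdkn1a, chr17:29090908-29090957, plus strand: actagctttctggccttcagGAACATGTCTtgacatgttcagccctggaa
Ccng1, chr11:40755442-40755491, minus strand: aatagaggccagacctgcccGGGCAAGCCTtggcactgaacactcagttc
The half-site begins 201 bases before the start of Bax, and at 51 and 185 bases before those of Cdkn1a and Ccng1. For Bmf it begins 213 bases before a RefSeq start that lies inside the annotated span of the gene. Cdkn1a holds another match, 73 bases before its start. Pmaip1 and Bik had no window in the table and were not searched. Matches were also found for Aen, Ei24, Mdm2, Sesn1 and Trp53, of which Mdm2, Sesn1 and Trp53 had log2 fold changes of -0.06, -0.01 and 0.07, and Ei24 of 0.11.

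Wild-type replicate 1 differed from the other wild-type libraries by transcript length among these genes too. It was the highest library in CPM for 10 members and the lowest for 6, and in TPM it was the lowest for 13. Its log2 CPM, less the mean of the other wild-type libraries, ran from -0.43 for Xiap, with an effective length of 5448 bases, to 0.61 for Bok, with 920 bases. Across the 31 genes this deviation and the effective length had a Spearman correlation of -0.65, beside -0.5 over all genes tested. The genes share their libraries and are not independent replicates. Short members such as Cycs (0.54), Bad (0.49), Bbc3 (0.45) and Bax (0.44) thus sat high in that library. Without it, 8 members had an unadjusted p under 0.05 (25.8%, beside 17.4% of all genes), Bax, Bak1, Bok, Bad, Bbc3, Pmaip1 and Cycs with higher and Birc2 with lower knockout values. In that fit too, 0 members were called, and genotype followed Y-linked expression.

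Death ligands, execution nucleases, clearance genes and other BCL2 relatives had 0 genes called and 1 or 2 a list with an unadjusted p under 0.05. The shares were 16.7%, 11.1%, 12.5% and 14.3% of the genes tested, beside 7.22% of all genes. Of 12 tested ligands, receptors and adaptors there were 2, Tnfrsf21 (log2 fold change 0.23) and Ngfr (0.26), both higher. Of 9 execution genes there was 1, Dnase2a, a lysosomal nuclease that degrades engulfed DNA, at 18.7, 20 and 17.2 CPM in the wild-type and 22.7, 23.8 and 26.2 CPM in knockout handpads (0.38, adjusted p = 0.362, edgeR). Of 16 tested clearance genes there were 2, the bridging proteins Mfge8 (0.34) and Pros1 (0.27), which tie dying cells to phagocytes. Of the 7 tested BCL2 relatives there was 1, Bcl2l13 (0.22). None of these 6 passed over all genes, and they were chosen for mention after their values were seen.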

How the data were processed

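Estimated counts and TPM per transcript were made by the authors with kallisto, per the submitters' processing notes, which also name FastQC and mm10. The sources used here give no kallisto version, transcript set or strand setting. The deposited effective lengths were used for offsets. The authors' deposited table gives log2 fold changes and log2 CPM, a test statistic (a score), p-values and FDR.

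Of 111462 transcripts, 110203 matched GENCODE release M21 and were summed to 34989 genes. Unmatched transcripts held 0.504% to 0.566% of the counts and were left out. No column of other samples was present. Estimated counts were rounded, filtered (filterByExpr, minimum count 10, total 15) and fitted in R 4.3.3 with edgeR 4.0.16 (TMM, glmQLFit, glmQLFTest) as 3 wild-type against 3 knockout libraries with no covariate, and adjusted by Benjamini-Hochberg over all genes. A call is an adjusted p under 0.05. CPM use TMM-scaled library sizes, and intervals come from the same fit. DESeq2 1.42.0 and limma 3.58.1 were alternatives, with other scalings, filters, length and Y-linked terms, the replicate block and leaving out each library. The procedure was tested on simulated data.

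Per-library values are given for members with an unadjusted p under 0.05, without overlap between groups, or most abundant in their role group, and for the 3 pathway genes with the smallest p in each direction. Members and lists were chosen with earlier results of these data known. At this depth the 31 genes had 12 to 9471 counts a library. Results of 1 pathway list are not reported here.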

Additional observations from a re-analysis of the deposited data

How the results depend on the processing

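In all 17 alternatives, 0 of the members tested were called. With a mean CPM of at least 1, 29 members were tested, without Hrk and Mlkl. Transcripts were fitted in every alternative except effective length offsets, and 0 member transcripts were called. The genes called over the whole table (59 higher, 14 lower) became 212 and 87 with DESeq2, 185 and 75 with the likelihood ratio test, 90 and 28 with no filter, and 164 and 39 with a term for mean transcript length. Those lower were 4 with limma-voom or with effective length offsets, 5 with a mean CPM of at least 1, and 23 once Y-linked expression was a term. Leaving out 1 library at a time gave 9 (without wild-type replicate 3) to 136 (without wild-type replicate 1) higher and 1 (without wild-type replicate 3 or knockout replicate 1) to 70 (without wild-type replicate 1) lower. Pathway genes called higher (0) became 2 with DESeq2 or the likelihood ratio test, 1 with the term for transcript length, and 0 to 2 leaving out 1 library (Cdkn1a and Sesn2 without wild-type replicate 1). The members' median (0.05) was 0.02 with effective length offsets or the term for transcript length, 0 with that for Y-linked expression and -0.02 to 0.1 leaving out 1 library, the highest being without wild-type replicate 1.

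Log2 fold changes that changed sign with effective length offsets were those of Birc3 (-0.15) and Mlkl (-0.32). With Y-linked expression as a term they were those of Bax (-0.24), Bak1 (-0.12), Bok (-0.16), Bcl2l1 (-0.03), Bcl2l2 (0.16), Mcl1 (-0.15), Bad (-0.24), Bik (-0.03), Apaf1 (0.05), Cycs (-0.32), Casp2 (0.1), Xiap (0.21), Birc2 (0), Fas (-0.27) and Fadd (-0.01). Wild-type replicate 1 was the only wild-type library with Y-linked expression near that of the knockouts (5.36 against 3.39 to 4.42 CPM). The genotype estimate with this term thus rests mainly on that library, and embryo sex as a cause was not tested. Leaving out 1 library, Xiap ranged from -0.25 to 0.04 and Bcl2 from -0.29 to 0.03. Pmaip1 stayed between 0.42 and 0.83 with adjusted p-values of 0.0795 to 0.94, and Bbc3 between 0.11 and 0.61 (0.14 to 1).

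With the replicate block, 5 genes were called lower and 1 pathway gene higher, Cdkn1a (adjusted p = 0.0439, edgeR), of 47 genes in all. Same-numbered libraries did not deviate together (correlations of -0.333, -0.102 and -0.231), so the numbers were not taken to pair them. The count minimum and a spread from 3 libraries a group limit what could be called, most for Mlkl, Hrk, Bik and Casp12, with the fewest counts.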
